A study of Mus musculus with 2 samples.

Results

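The mitosis and chromosome segregation genes are a set of 47 genes whose products drive a cell from the end of DNA replication through the separation of its chromosomes to its division. They were taken by symbol from a deposited table of 54532 genes, and all 47 had 1 row each. RNA had been sequenced from sorted stromal cells of mouse bone marrow, the niche cells that house blood stem cells, in 2 libraries, and each group was represented by 1 library. The aGVHD_V library came from female CB6F1 mice that were irradiated with 2 doses of 4.0 Gy, received B6.SJL marrow 4 hours later and were also given C57BL/6 spleen cells, whose T cells cause acute graft-versus-host disease (aGVHD). The BMT library came from female CB6F1 mice with the same irradiation and B6.SJL marrow but no spleen cells. The sources used here do not give what the V stands for, how many mice were pooled, or how long after transplantation cells were taken. The sort removed cells with CD45, lineage antigens or CD71, and dead cells. Against that sort, transcripts of erythroid precursors were abundant in both libraries (summed FPKM of 6451 in aGVHD_V and 3786 in BMT), and those of mesenchymal stromal cells were scarce in the aGVHD_V library (38.2, against 781 in BMT). The comparison sets marrow of mice prepared to develop aGVHD against that of mice given only a transplant, and with 1 library per group it has no replicate check and no test.

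In a dividing cell, CDK1 bound to cyclin A or cyclin B phosphorylates the proteins that start mitosis. Condensin then compacts the chromosomes, kinesin motors and aurora kinases build the spindle, kinetochores attach each chromosome to it, and the spindle checkpoint holds the anaphase-promoting complex (APC/C) back until every chromosome is attached. Most of these genes are silent in resting cells and are transcribed together late in the cell cycle, under the MuvB complexes with B-MYB and FOXM1. In marrow, erythroblasts, granulocyte precursors and B cell precursors divide rapidly, whereas most stromal cells are quiescent.

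The 47 genes were all detected in both libraries. As a set they were slightly higher in the aGVHD_V library on the authors' scale, though lower once both libraries were given the same total FPKM. Their levels ran from an FPKM (fragments relative to the length of the gene and to the scaled size of the library) of 4.71 to 227 in the aGVHD_V library and of 4.61 to 162 in the BMT library. The summed FPKM of the set was 2045 in the aGVHD_V library and 1598 in the BMT library, and the set took 0.989% and 0.867% of the recovered reads in those libraries. Read numbers per gene ran from 247 to 24352 in the aGVHD_V library and from 249 to 15783 in the BMT library. The lowest in the aGVHD_V library, 247 for Ttk, stood against a floor of 132 reads there, set out with the processing. A gene counted as measured where either library reached an FPKM of 1, as all 47 and 12942 genes in all did. The median FPKM of the 47 was 24.9 in the aGVHD_V library and 23.5 in the BMT library, beside 5.68 and 6.35 over all measured genes, and 38 of the 47 reached an FPKM of 10 in both libraries. The order of the genes by level was similar, with Spearman's rho of 0.93 over the 47 genes, which share the same 2 libraries and gene lengths.

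Differences are those of log2(FPKM + 1), aGVHD_V minus BMT, and were called at least 2-fold once they reached 1 in size. The median difference of the 47 genes was 0.31 (range -0.88 to 1.19), beside -0.07 over all measured genes and 0.03 over the 9753 genes that reached an FPKM of 1 in each of the libraries. In the aGVHD_V library, no gene of the set was lower by 2-fold or more, beside 19.4% of all measured genes. Higher by as much were 3 of the 47, beside 8.65% of all measured genes, so this count lies near the background. Low genes made many of the large differences, and of the 5438 genes that reached an FPKM of 10 in either library, 7.63% were lower and 7.08% higher by that much. Of the 47 genes 37 were higher by any size and 10 lower, against, for higher, 46.1% of all measured genes and 56.9% of those 5438 genes. The direction of the set depended on the scaling, since 12 genes were higher and 35 lower, with a median of -0.26, with that same total (equal-sum scaling). Of all genes measured under equal-sum scaling 19.6% were higher. Hemoglobin genes made up 162021 of the FPKM total of 507958 in the aGVHD_V library, and 43018 of 340171 in the BMT library. A further scaling left hemoglobin, mitochondrial and ribosomal protein genes out of the library sizes. Under it 34 of the 47 were higher and 13 lower (median 0.22), against 40.5% of all measured genes higher. Equal-sum scaling also moved the genes detected in both libraries to a median of -0.52. Relative to those genes, the median of the set stood 0.22 to 0.28 higher under all 12 settings tried, the authors' scale included. A rescaling moves both medians nearly alike and a filter moves neither, so the steadiness of this gap is no separate check.

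**Figure D1:**
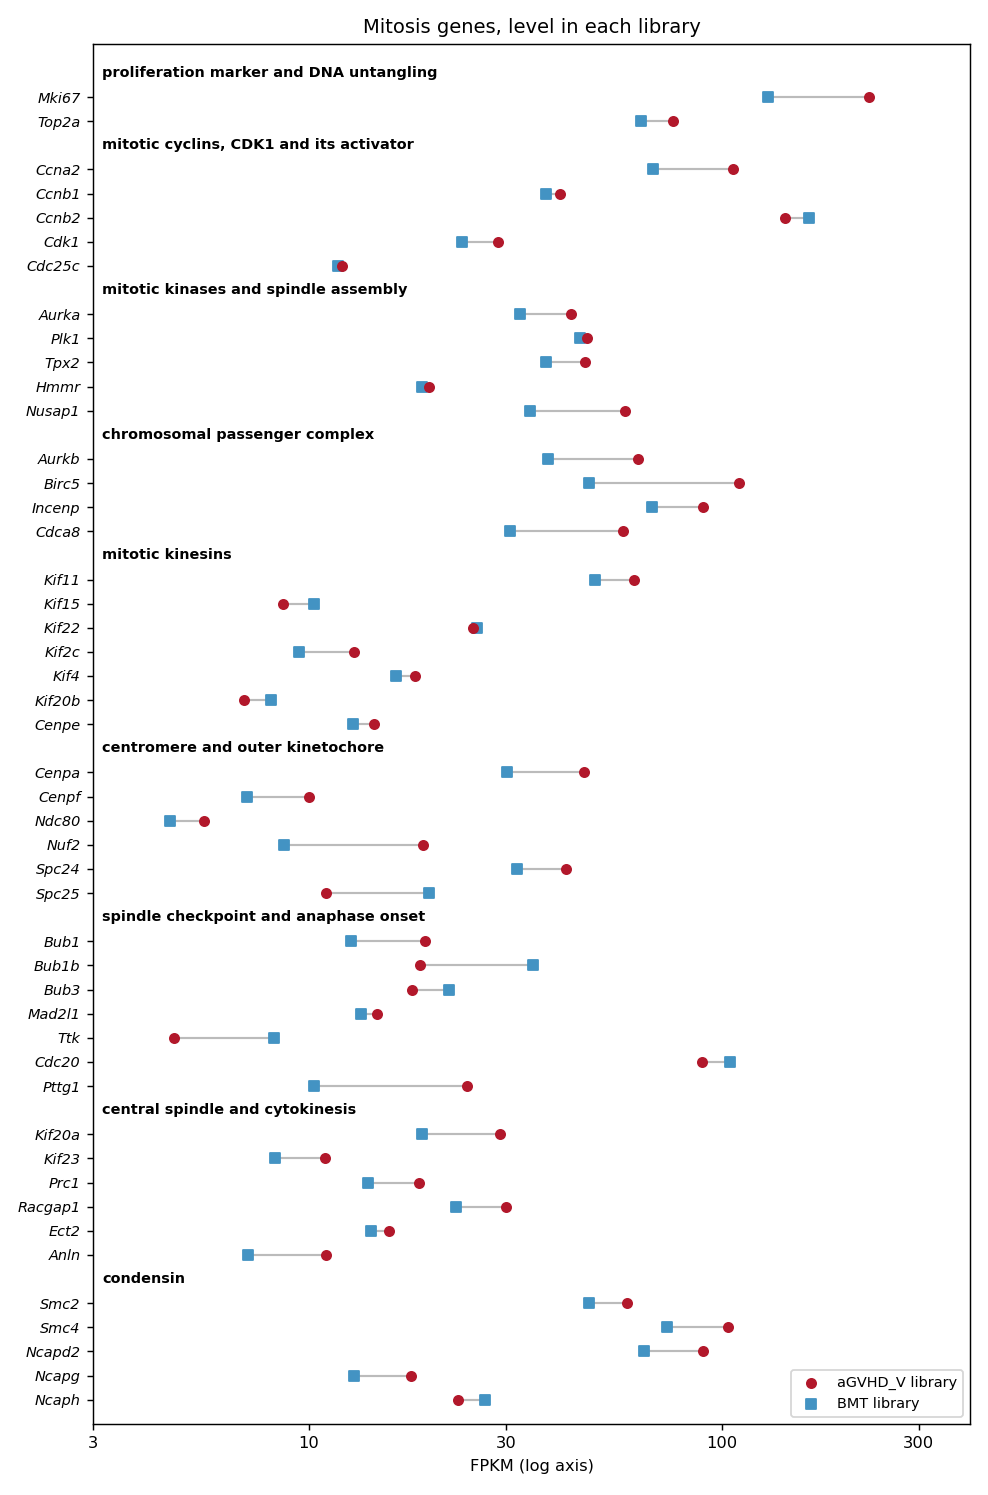
FPKM (log axis) of each of the 47 genes in the aGVHD_V library (red circles) and the BMT library (blue squares), grouped by role. Red lies to the right of blue for 37 genes and to the left for 10, and these directions hold on the authors' scale (12 higher and 35 lower under equal-sum scaling).

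Most promoters of these genes carry the sequence elements known from late cell cycle genes. The cell cycle genes homology region (CHR) is bound by the MuvB complexes, and the CCAAT box by the factor NF-Y. Here a CHR core means TTTGAA or TTCGAA, and no other form of it was searched. An element called absent is absent in these forms only. Promoters of 300 bases, 250 before to 50 after a RefSeq transcript start on GRCm38.p6, were found for 39 of the 47 genes, and both strands were searched. Aurkb, Ccna2, Cdc25c, Incenp, Kif20a, Smc4, Spc24 and Tpx2 were not among them. A CHR core was found in 31 of the 39 genes (79.5%), against 21.7% of 27025 genes with a promoter and 16.5% of 9147 measured genes with one. A CCAAT box was found in 28 of the 39 (71.8%), against 41.1% of all genes and 42.8% of measured genes, and at least 2 copies in 19 (48.7%), against 13.3% and 16.7%. Both elements were found in 26 of the 39 (66.7%), against 8.61% of all genes and 6.89% of measured genes. These matches describe the letters in the window and are not shown to be bound in these cells. The promoters of Mki67 and Ccnb2, which had the highest level of the set in the aGVHD_V library and in the BMT library, are shown as examples, written 5′ to 3′ with every CHR core and CCAAT box in capitals on either strand.
Mki67 promoter, chr7:135716330-135716629, minus strand: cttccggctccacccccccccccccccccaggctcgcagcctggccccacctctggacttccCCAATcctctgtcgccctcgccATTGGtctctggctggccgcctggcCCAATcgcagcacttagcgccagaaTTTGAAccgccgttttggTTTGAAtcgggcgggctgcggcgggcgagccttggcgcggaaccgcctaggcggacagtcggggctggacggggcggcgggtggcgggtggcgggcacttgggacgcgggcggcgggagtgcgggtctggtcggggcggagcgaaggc
Ccnb2 promoter, chr9:70421505-70421804, minus strand: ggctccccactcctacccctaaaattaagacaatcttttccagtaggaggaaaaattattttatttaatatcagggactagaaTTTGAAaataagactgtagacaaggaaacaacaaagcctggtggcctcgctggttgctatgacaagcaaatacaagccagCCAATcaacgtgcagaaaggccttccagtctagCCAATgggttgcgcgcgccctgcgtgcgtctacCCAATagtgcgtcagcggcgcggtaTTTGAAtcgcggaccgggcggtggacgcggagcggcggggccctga
The Mki67 promoter held 2 CHR cores and 3 CCAAT boxes (1 of them as ATTGG on the other strand), and its CHR cores began 116 and 98 bases before the start site. In the Ccnb2 promoter 3 CCAAT boxes began 87, 54 and 21 bases before the start site, and a CHR core began at base 5 after it, with another 167 bases before it.

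Mki67, which encodes the proliferation marker Ki-67 that coats mitotic chromosomes, had an FPKM of 227 in the aGVHD_V library and 129 in the BMT library, on 24352 and 15783 reads. It was the most abundant of the 47 genes in the aGVHD_V library and was 1.76-fold higher there, with an interval of 1.58 to 1.94. Intervals of folds are 95% intervals on reads divided by the modal read number, the number that detected genes most often had (44 in the aGVHD_V library and 14 in the BMT library), and they cover counting error only. The gene (ENSMUSG00000031004) lies on chromosome 7 at 135689784 to 135716361 on the minus strand of GRCm38. Top2a, topoisomerase II alpha, which untangles sister chromatids, had an FPKM of 76.3 in the aGVHD_V library and 63.5 in the BMT library. Mki67 stayed higher in the aGVHD_V library under all 12 settings, and Top2a was lower (-0.31) under equal-sum scaling. Pseudocounts and filters cannot change the sign of a gene, so among these settings only the rescalings bear on direction. Of these only scaling to the upper quartile of FPKM raised the set, and by little (median 0.34, against 0.31 on the authors' scale). The other rescalings lowered it, so genes lower on the authors' scale were nearly bound to stay lower.

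Of the mitotic cyclins, CDK1 and its activator, Ccna2 differed most and the other 4 differed little. Ccna2, the cyclin A2 gene, which acts in S phase and at mitotic entry, had an FPKM of 106 in the aGVHD_V library and 68.0 in the BMT library, 1.56-fold higher (1.23 to 1.97). Ccnb2, cyclin B2, had an FPKM of 143 in the aGVHD_V library and 162 in the BMT library, 1.14-fold lower, and the interval of the ratio (0.64 to 1.2) included no difference. Its paralog Ccnb1 had 40.5 and 37.5 in those libraries, so Ccnb2 stood at 3.52 times the level of Ccnb1 in the aGVHD_V library and 4.33 times in the BMT library. Cdk1 itself had an FPKM of 28.8 in the aGVHD_V library and 23.5 in the BMT library. Cdc25c, the phosphatase that activates CDK1, had 12.0 and 11.7 on 248 and 276 reads. The group's median difference of 0.11 became -0.46 under equal-sum scaling and -0.13 with library sizes of all recovered reads. Processed pseudogenes with 97.3% to 99.2% identity to Ccnb1 over 1287 to 1294 bases were listed at an FPKM of at most 1.79, so the division of reads between them and Ccnb1 is uncertain.

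Aurora A kinase (Aurka), its activator Tpx2 and the kinase Plk1 build the spindle poles. Aurka had an FPKM of 43.2 in the aGVHD_V library and 32.4 in the BMT library, and Tpx2 had 46.6 and 37.5. Plk1, the highest of this group in the BMT library, was nearly equal at 47.05 in the aGVHD_V library and 45.2 in the BMT library, as was Hmmr, a spindle-associated hyaluronan receptor, at 19.5 and 18.8. The largest difference of the group belonged to Nusap1, a microtubule-bundling protein, with an FPKM of 58.2 in the aGVHD_V library and 34.3 in the BMT library, 1.7-fold higher (1.21 to 2.33). The group's median was 0.30, and -0.26 under equal-sum scaling.

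All 4 genes of the chromosomal passenger complex were higher in the aGVHD_V library on the authors' scale, 3 of them under all 12 settings, while Incenp was lower (-0.17) under equal-sum scaling. This complex carries aurora B kinase to centromeres, where it corrects faulty attachments, and later to the division plane. Its median difference of 0.80 was the highest of the 9 role groups and ran from 0.23 to 0.83 over the 12 settings. Birc5, survivin, which docks the complex on chromatin, had an FPKM of 110 in the aGVHD_V library and 47.7 in the BMT library, on 3988 and 1967 reads. It was 2.31-fold higher (1.76 to 3.05) and had the largest difference of the 47 genes (1.19). Cdca8, borealin, was 1.87-fold higher (1.38 to 2.5), with an FPKM of 57.6 in the aGVHD_V library and 30.7 in the BMT library. Aurkb, the kinase, had 62.5 and 37.9 in those libraries, 1.65-fold higher (1.14 to 2.39). Incenp, the scaffold, had 90.03 and 67.7, and its interval ran from 0.99 to 1.75. Birc5 (ENSMUSG00000017716) occupies bases 117849251 to 117855743 of chromosome 11, plus strand, and its promoter window, shown because this gene differed most, held neither a CHR core nor a CCAAT box.
Birc5 promoter, chr11:117848987-117849286, plus strand: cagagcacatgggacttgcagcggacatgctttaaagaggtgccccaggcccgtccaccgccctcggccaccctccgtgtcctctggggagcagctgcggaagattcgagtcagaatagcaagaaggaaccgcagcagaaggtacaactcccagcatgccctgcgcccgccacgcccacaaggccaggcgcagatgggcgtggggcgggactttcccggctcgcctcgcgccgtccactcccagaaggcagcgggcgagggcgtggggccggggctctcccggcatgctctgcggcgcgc

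**Figure D2:**
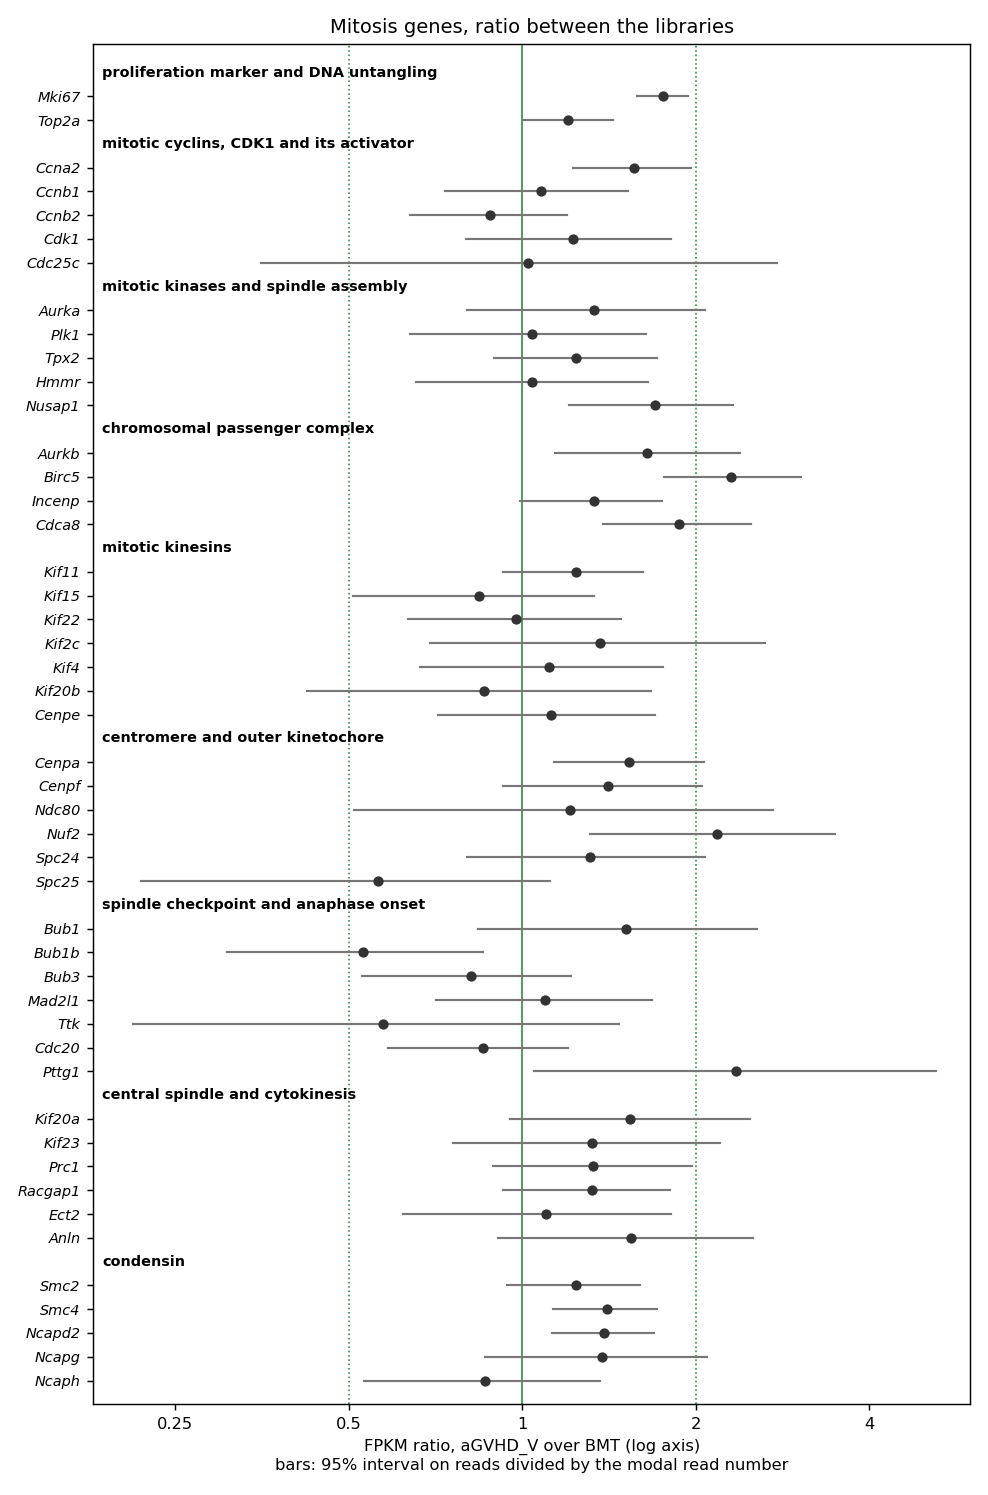
FPKM ratio of the aGVHD_V library over the BMT library (log axis) for each of the 47 genes, with bars for the 95% interval on reads divided by the modal read number, which covers counting error only, and lines at 0.5, 1 and 2. On the authors' scale ratios ran from 0.53 for Bub1b to 2.35 for Pttg1. Under equal-sum scaling all points would move left together.

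The mitotic kinesins, motors that push spindle poles apart and move chromosomes, stayed close to equal. Kif11, which slides antiparallel microtubules and was the highest of them, had an FPKM of 61.2 in the aGVHD_V library and 49.2 in the BMT library. Kif2c, a microtubule depolymerase of centromeres, had 12.9 and 9.43. Cenpe, the kinesin that moves chromosomes to the spindle equator, had 14.4 in the aGVHD_V library and 12.8 in the BMT library, and the chromokinesin Kif4 had 18.1 and 16.2. Kif15 (8.63 and 10.3), Kif22 (24.9 and 25.6) and Kif20b (6.96 and 8.1) were lower in the aGVHD_V library on the authors' scale. They stayed lower under all 12 settings, as did every gene of the set that was lower on that scale. The intervals of all 7 kinesins included no difference, and the group's median of 0.15 became -0.41 under equal-sum scaling and -0.08 with library sizes of all recovered reads.

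Subunits of a single kinetochore complex went different ways on the authors' scale, though the interval of the lower one included no difference. The Ndc80 complex, which grips the microtubule, has the subunits Ndc80, Nuf2, Spc24 and Spc25. Nuf2 had an FPKM of 18.9 in the aGVHD_V library and 8.67 in the BMT library, on 1275 and 667 reads, which is 2.17-fold higher (1.31 to 3.5). Spc25 had an FPKM of 11.003 in the aGVHD_V library and 19.6 in the BMT library, on 374 and 756 reads. That is 1.78-fold lower, and the interval of the ratio (0.22 to 1.12) included no difference. Nuf2 stayed higher under all 12 settings, and Spc25 stayed lower, as did every gene of the set that was lower on the authors' scale. Spc24 had 41.8 in the aGVHD_V library and 31.9 in the BMT library, and Ndc80 had 5.58 and 4.61, and both were lower under equal-sum scaling (-0.18 and -0.28). The ratio of Spc24 to Spc25 was 3.8 in the aGVHD_V library and 1.63 in the BMT library. Of the other kinetochore genes, Cenpa, the centromeric histone H3 variant, was 1.54-fold higher at 46.4 against 30.2 (1.14 to 2.07), and Cenpf, a large coiled-coil protein of the outer kinetochore, had 9.99 in the aGVHD_V library and 7.09 in the BMT library. The group's median was 0.41, and -0.13 under equal-sum scaling. Nuf2 (ENSMUSG00000026683) lies on chromosome 1 at 169497934 to 169531464 and Spc25 (ENSMUSG00000005233) on chromosome 2 at 69193895 to 69206194, both on the minus strand. Their promoters are shown as a pair because the genes belong to 1 complex and differed in opposite directions.
Nuf2 promoter, chr1:169531415-169531714, minus strand: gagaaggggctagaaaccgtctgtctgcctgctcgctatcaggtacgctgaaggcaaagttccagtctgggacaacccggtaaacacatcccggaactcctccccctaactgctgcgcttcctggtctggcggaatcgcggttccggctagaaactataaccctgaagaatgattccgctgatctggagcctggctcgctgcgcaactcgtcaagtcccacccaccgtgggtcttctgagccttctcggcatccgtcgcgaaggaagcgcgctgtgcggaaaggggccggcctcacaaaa
Spc25 promoter, chr2:69206164-69206463, minus strand: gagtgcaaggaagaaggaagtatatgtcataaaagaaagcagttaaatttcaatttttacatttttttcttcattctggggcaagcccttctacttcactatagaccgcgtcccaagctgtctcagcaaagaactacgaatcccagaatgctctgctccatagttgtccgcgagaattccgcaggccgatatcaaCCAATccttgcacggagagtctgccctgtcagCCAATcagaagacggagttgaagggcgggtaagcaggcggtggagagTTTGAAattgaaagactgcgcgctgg
The Nuf2 window held neither element. The Spc25 window held 2 CCAAT boxes, which began 55 and 23 bases before the start site, and a CHR core that began at base 25 after it.

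Genes of the spindle checkpoint and of anaphase onset were the only one of the 9 role groups with a median below 0 on the authors' scale (-0.22). Over the 12 settings the median ran from -0.80 to -0.19. Nearly all rescalings lowered it, so its steady sign is no separate check. Bub1b, which encodes BUBR1, a part of the complex that inhibits the APC/C, had an FPKM of 18.5 in the aGVHD_V library and 34.9 in the BMT library, on 844 and 1811 reads. It was 1.89-fold lower, with an interval of the ratio of 0.31 to 0.86, the lowest ratio of the 47 genes. Ttk, the checkpoint kinase MPS1, had 4.71 in the aGVHD_V library and 8.21 in the BMT library, on 247 and 490 reads, and its interval (0.21 to 1.47) included no difference. Bub3, the partner of BUB1 and BUBR1, had an FPKM of 17.8 in the aGVHD_V library and 21.8 in the BMT library. Cdc20, the APC/C activator that the checkpoint restrains and the most abundant gene of this group, had 89.4 and 104. All 4 were lower in the aGVHD_V library on the authors' scale and, like every such gene of the set, under all 12 settings. Bub1, the kinase that recruits these proteins to kinetochores, was in the other direction at 19.1 in the aGVHD_V library and 12.7 in the BMT library, and the ratio of Bub1b to Bub1 was 0.97 in the aGVHD_V library and 2.76 in the BMT library. Mad2l1, the checkpoint protein MAD2, had 14.6 in the aGVHD_V library and 13.4 in the BMT library. Pttg1, securin, which holds separase inactive until anaphase, had an FPKM of 24.1 in the aGVHD_V library and 10.3 in the BMT library, on 514 and 249 reads. It was 2.35-fold higher, the highest ratio of the 47 genes, with a wide interval of 1.05 to 5.23. Pttg1 (ENSMUSG00000020415) lies on chromosome 11 at 43420250 to 43426251 on the minus strand, Bub1b (ENSMUSG00000040084) on chromosome 2 at 118598211 to 118641591 and Ttk (ENSMUSG00000038379) on chromosome 9 at 83834689 to 83872389, both on the plus strand. The promoters of the highest and the 2 lowest genes of this group follow.
Pttg1 promoter, chr11:43425932-43426231, minus strand: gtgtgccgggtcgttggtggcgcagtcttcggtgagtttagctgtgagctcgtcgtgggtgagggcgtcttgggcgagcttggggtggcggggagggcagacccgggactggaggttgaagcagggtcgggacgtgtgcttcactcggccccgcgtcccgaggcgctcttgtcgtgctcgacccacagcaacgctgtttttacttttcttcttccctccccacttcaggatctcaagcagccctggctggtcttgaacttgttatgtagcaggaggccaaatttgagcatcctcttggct
Bub1b promoter, chr2:118597961-118598260, plus strand: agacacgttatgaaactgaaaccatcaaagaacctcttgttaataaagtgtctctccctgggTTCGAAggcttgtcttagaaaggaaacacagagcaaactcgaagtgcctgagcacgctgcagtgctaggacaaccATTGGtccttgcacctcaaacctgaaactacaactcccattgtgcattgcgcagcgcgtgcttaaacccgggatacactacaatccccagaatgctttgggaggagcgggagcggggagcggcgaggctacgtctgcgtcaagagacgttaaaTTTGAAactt
Ttk promoter, chr9:83834439-83834738, plus strand: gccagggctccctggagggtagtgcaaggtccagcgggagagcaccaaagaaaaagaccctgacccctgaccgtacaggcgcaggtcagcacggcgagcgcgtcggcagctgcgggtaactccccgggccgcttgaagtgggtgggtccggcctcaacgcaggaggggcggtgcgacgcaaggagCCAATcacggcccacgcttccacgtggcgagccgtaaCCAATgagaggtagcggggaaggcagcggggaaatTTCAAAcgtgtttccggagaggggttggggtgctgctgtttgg
The Pttg1 window held neither element, and its start site lies 1482 bases inside the RefSeq gene, so other starts of this gene were not searched. The Bub1b window held TTTGAA at base 41 after the start site, TTCGAA 188 bases before it and 1 CCAAT box on the other strand. The Ttk window held 2 CCAAT boxes before the start site and a CHR core on the other strand at base 8 after it. The 3 genes at least 2-fold higher (Birc5, Nuf2 and Pttg1) were among 6 of the 39 genes with neither element in the window, beside Mad2l1, Ncaph and Nusap1. Pttg1 was counted among the 6 although its other starts were not searched. The 3 genes with the lowest differences (Bub1b, Spc25 and Ttk) were among the 26 with both. The median difference was 0.89 over those 6 genes (range -0.21 to 1.19) and 0.29 over those 26 (range -0.88 to 0.88). By single elements the gap was smaller, with medians of 0.28 over 31 genes with a CHR core and 0.45 over 8 without, and of 0.27 over 28 genes with a CCAAT box and 0.41 over 11 without. The ranges overlap in each split, and the splits were made after the values were seen and have no test. A link between these elements and the direction of a gene was not tested.

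All 6 genes of the central spindle and cytokinesis were higher in the aGVHD_V library on the authors' scale (0.13 to 0.60), and 4 of them were lower under equal-sum scaling, where Kif20a and Anln stayed above 0. Ect2 was also lower with library sizes of all recovered reads (-0.10). Racgap1, part of centralspindlin, had an FPKM of 30.01 in the aGVHD_V library and 22.7 in the BMT library, and its partner kinesin Kif23 had 10.9 and 8.29, so their ratio was 0.36 in both libraries. Prc1, which bundles the central spindle, had 18.4 in the aGVHD_V library and 13.9 in the BMT library. Kif20a, a kinesin that brings aurora B and PLK1 to the central spindle, had 28.9 and 18.8, and Anln, anillin, a scaffold of the contractile ring, had 10.97 and 7.11. Ect2, which activates RhoA at the division plane, had 15.6 and 14.2. The intervals of all 6 included no difference.

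Condensin genes were higher except for 1 subunit on the authors' scale, and all 5 were lower under equal-sum scaling. The core ATPases Smc4 and Smc2 had FPKM of 103 and 59.0 in the aGVHD_V library, and 73.7 and 47.6 in the BMT library. Smc4 was 1.4-fold higher (1.13 to 1.71). Among the subunits of condensin I, Ncapd2 was 1.39-fold higher at 89.8 against 64.7 (1.13 to 1.69), and Ncapg had 17.6 in the aGVHD_V library and 12.8 in the BMT library. Ncaph, the subunit that closes the ring, had 23.0 and 26.7, lower on the authors' scale and, like every such gene of the set, under all 12 settings. All 3 subunits found in condensin II alone were higher on the authors' scale (0.11 to 0.42) and lower under equal-sum scaling (-0.45 to -0.14).

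The order of the genes by level rests on the gene lengths the authors used. For 20 of the 47 genes the deposited length was more than 1.5 times the longest coding transcript in GENCODE M21, most for Cenpa (5860 against 1466 bases) and Cdca8 (5177 against 1626 bases). Per kilobase of that transcript, Cenpa stood at 185 in the aGVHD_V library and 121 in the BMT library on the FPKM scale, and Cdca8 at 183 and 97.9, which places them next to Mki67 (227 and 129) and Ccnb2 (143 and 162). Ndc80 stood at 16.4 and 13.6 per kilobase of its longest coding transcript. Ratios between the libraries do not depend on the length. Exons of Ccna2, Kif20a, Kif4, Ncapg and Prc1 overlap the exons of a gene on the opposite strand over 431 to 979 bases, and reads of such pairs cannot be told apart if strand was not used. Ndc80 also matches the transcript 2700099C18Rik over 303 bases at 95.05% identity, which was listed at an FPKM of 5.33 in the aGVHD_V library and 2.0 in the BMT library.

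Other genes of the cell cycle mostly lay within 2-fold too, and the values that follow are on the authors' scale. Under equal-sum scaling the medians of all 10 lists were below 0 (-0.67 to -0.089), and none of their genes was at least 2-fold higher. Under that scaling 8 of the 10 lists held genes at least 2-fold lower, which numbered 3 each in the inner kinetochore, other spindle and centrosome, and p53 arrest lists, 2 each among APC/C genes and transcription factors, and 1 each in the cohesin, G1/S and CDK inhibitor lists. Of all genes measured under equal-sum scaling 38.4% were lower by as much. None of 24 genes of the G1/S transition and replication was at least 2-fold different, and their median was 0.40, with Pcna, the sliding clamp of DNA polymerase, at an FPKM of 377 in the aGVHD_V library and 247 in the BMT library. Of 15 cell cycle transcription factors 3 were at least 2-fold higher and none lower (median 0.46). Beside this and the counts that follow, 8.65% of all measured genes were at least 2-fold higher and 19.4% lower. The fold interval of Lin37, 1 of these 3, ran from 0.58 to 7.75 and included no difference. E2f7, a repressor of E2F targets, had 5.97 in the aGVHD_V library and 2.27 in the BMT library, Lin37, a MuvB subunit, had 14.8 and 6.54, and E2f2 had 179 and 85.2. E2f4, the most abundant over both libraries, had 169 and 146. Foxm1 and Mybl2, the activators of late cell cycle genes, were named for that role and had 17.7 and 56.6 in the aGVHD_V library, and 13.7 and 35.6 in the BMT library. All 18 genes of the APC/C and its E2 enzymes lay within 2-fold (median 0.16), as did all 10 other CDK1 regulators (median 0.20), of which Cks2, a CDK-binding subunit, was the highest at 253 in the aGVHD_V library and 184 in the BMT library. In the cohesin list 1 of 13 genes was at least 2-fold higher, Sgo1 (shugoshin, which protects centromeric cohesin), with 23.9 in the aGVHD_V library and 11.1 in the BMT library. In the inner kinetochore list 1 of 24 was higher, Dsn1 of the Mis12 complex (18.8 and 8.41). Of 20 other spindle and centrosome genes only Cep55, an abscission protein, was at least 2-fold different, at 0.61 on 18 reads in the aGVHD_V library and 5.91 on 199 reads in the BMT library, which is under the floor of 3 counts in the aGVHD_V library. Of 9 CDK inhibitor and quiescence genes 7 were higher (median 0.19), and under equal-sum scaling 3 of 9 were. Cdkn1a, the CDK inhibitor p21, had 19.0 in the aGVHD_V library and 36.3 in the BMT library, whereas Cdkn2c, p18, had 47.002 and 27.6. Of the 3 stress genes of the Gadd45 family, Gadd45a was at 151 in the aGVHD_V library and 69.2 in the BMT library, whereas Gadd45g (33.3 and 79.8) and Gadd45b (24.9 and 53.5) were at least 2-fold lower.

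The library labels name niche cells, and markers of stromal and endothelial cells were far lower in the aGVHD_V library than in the BMT library, also under equal-sum scaling. All 12 mesenchymal stromal markers were at least 2-fold lower there, with Cxcl12, a niche chemokine, at 14.6 in the aGVHD_V library and 346 in the BMT library, and Lepr, Esm1 and Grem1 had no reads in the aGVHD_V library. The 9 endothelial markers summed to 14.3 in the aGVHD_V library and 79.2 in the BMT library, with Cdh5, Kdr, Cldn5 and Tek at 0 in the aGVHD_V library. On the authors' scale 8 of the 9 were lower there, and Emcn was not (1.58 and 1.43). B cell precursor markers summed to 4.51 and 96.3, with 8 of 12 at 0 in the aGVHD_V library. A 0 there says little where the BMT library had few reads, as for Tek (93), Vpreb3 (74) and Rag2 (21). The modal read number was 44 in the aGVHD_V library and 14 in the BMT library. Of the erythroid precursor markers 14 of 15 were higher in the aGVHD_V library on the authors' scale (median 0.64), and 9 of 15 under equal-sum scaling (median 0.065). Gata1, their transcription factor, had 90.8 and 75.9, and Tfrc, which encodes the depleted CD71, had 269 and 160. Granulocyte precursor markers summed to 7693 in the aGVHD_V library and 5678 in the BMT library (median 0.06, and -0.52 under equal-sum scaling). T cell markers summed to 108 and 50.5 (median 0.64), and 3 of 10 were at least 2-fold higher, beside 8.65% of all measured genes. Of these 3, Cd3d had 131 reads in the aGVHD_V library and 21 in the BMT library. That is under the floor of 3 counts in both, with a fold interval of 0.61 to 64.2. Trbc2 (38.1 and 12.2) and Trbc1 (23.7 and 5.95), constant regions of the T cell receptor beta chain, made up much of these sums, and their fold intervals (0.85 to 10.6 and 0.67 to 19.2) included no difference. All 10 T cell markers were higher on the authors' scale and 6 of 10 under equal-sum scaling. Megakaryocyte markers summed to 274 in the aGVHD_V library and 80.6 in the BMT library (median 1.19). Of these 4 of 6 were at least 2-fold higher and 1 under equal-sum scaling, beside 8.65% and 6.09% of all measured genes. Pf4, a platelet chemokine, made up most of the sum in the aGVHD_V library (190.6, and 28.4 in the BMT library), while Ppbp, another platelet chemokine, had 28.3 and 29.2. Stem and progenitor cell markers summed to 13.2 in the aGVHD_V library and 23.5 in the BMT library. Myb, a transcription factor of progenitors, made up much of these sums, at 6.86 and 14.2 in those libraries. Only 4 of these 9 markers were measured. Of the 4, 3 were lower in the aGVHD_V library (median -0.58), and Flt3 was higher (1.12 and 0.43). Monocyte and macrophage markers summed to 157 in the aGVHD_V library and 156 in the BMT library, of which Ly6c2, a monocyte surface protein, made up 122 and 93.2. The other 7 of 8 were lower in the aGVHD_V library (median of the list -0.61), 2 of them at least 2-fold (Mrc1 at 2.83 and 8.22, Irf8 at 2.42 and 6.29), and 6 of 8 under equal-sum scaling. Of all measured genes 19.4% were lower by as much on the authors' scale and 38.4% under equal-sum scaling. Plasma cell markers summed to 40.9 and 59.2 (median -0.84), and 5 of the 6 measured were lower in the aGVHD_V library. Jchain was higher, at 10.5 in the aGVHD_V library and 1.70 in the BMT library, with a fold interval of 1.27 to 25.8. The fold intervals of Xbp1 (0.36 to 1.01) and Irf4 (0.03 to 1.15), which were lower, included no difference. Osteoblast markers summed to 4.12 in the aGVHD_V library and 44.9 in the BMT library. Hemoglobin transcripts made up 11.8% of reads in the aGVHD_V library and 3.71% in the BMT library. Ptprc, which encodes the depleted CD45, had an FPKM of 7.85 in the aGVHD_V library and 9.28 in the BMT library. The part of these cell types in the levels of the mitosis genes was not tested. In such bulk libraries a change in the number of dividing cells and a change in transcript per dividing cell cannot be told apart.

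**Figure D3:**
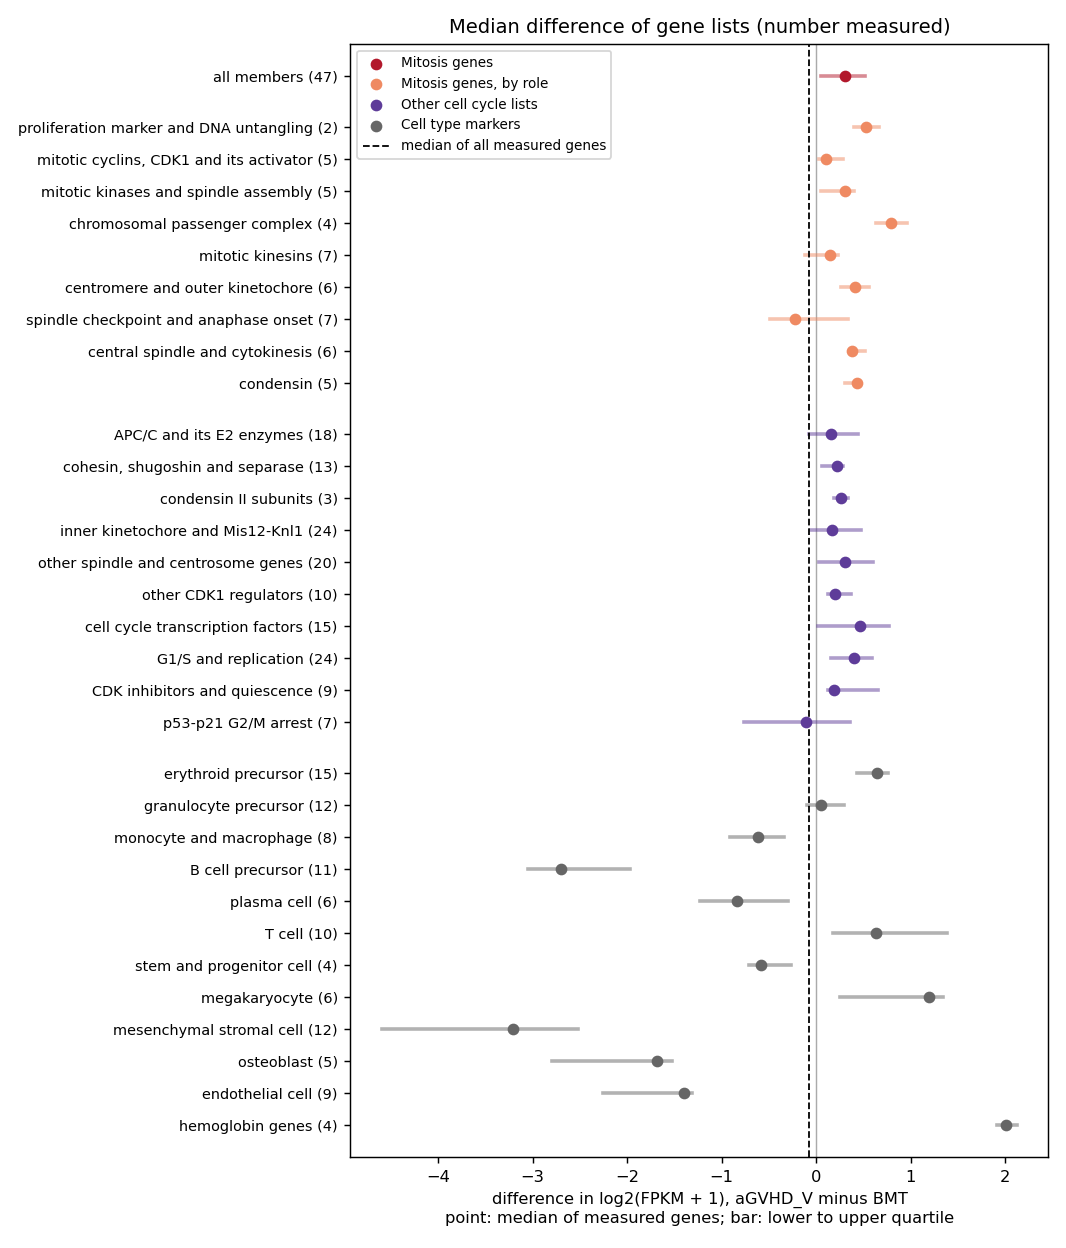
Median difference in log2(FPKM + 1), aGVHD_V minus BMT, with the lower to upper quartile as bars, for the 47 genes (red), their 9 role groups (orange), other cell cycle lists (purple) and cell type markers (grey), and the number of measured genes in brackets. On the authors' scale the 47 genes lie at 0.31, mesenchymal stromal markers at -3.20 and erythroid precursor markers at 0.64, and the dashed line marks all measured genes at -0.07. Under equal-sum scaling the 47 genes lie at -0.26.

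The plot of the median under each setting shows how far the direction of the set rests on the scaling. Of the 47 genes 12 stayed above 0 under all 12 settings and 10 stayed below 0, while the sign of the other 25 depended on the setting. Equal-sum scaling changed the sign of 25 genes and library sizes of all recovered reads that of 8. Leaving hemoglobin, mitochondrial and ribosomal protein genes out of the library sizes changed 3. The other alternatives changed no sign, and a new pseudocount or filter cannot change one. Among the rescalings only scaling to the upper quartile of FPKM moved genes up, and by little. Genes lower on the authors' scale were thus nearly bound to stay below 0, so their steady sign is no separate check. The 12 were Mki67, Ccna2, Nusap1, Aurkb, Birc5, Cdca8, Cenpa, Nuf2, Bub1, Pttg1, Kif20a and Anln. The 10 were Ccnb2, Kif15, Kif22, Kif20b, Spc25, Bub1b, Bub3, Ttk, Cdc20 and Ncaph. On the authors' scale the fold intervals of 34 of the 47 genes included no difference. Among the 10 only Bub1b had an interval wholly below 1. Among the 12 the intervals of Bub1, Kif20a and Anln included no difference.

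**Figure D4:**
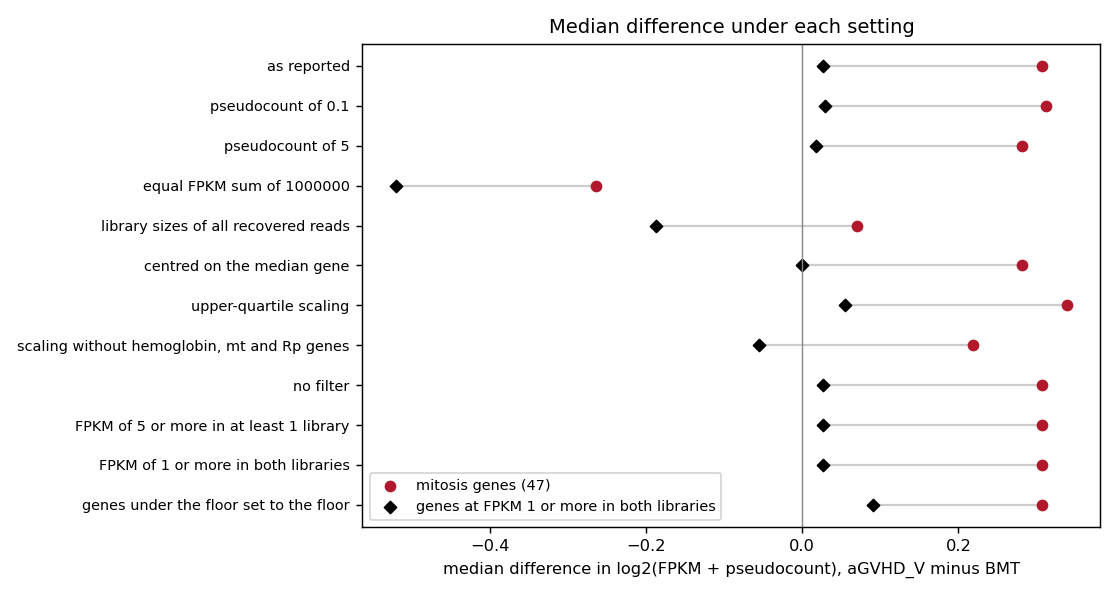
Median difference, aGVHD_V minus BMT, of the 47 mitosis genes (red circles) and of the genes that reached an FPKM of 1 in each library (black diamonds) under the authors' scale and 11 alternative settings. The red circle lies above 0 except under equal-sum scaling (-0.26), and it lies 0.22 to 0.28 to the right of the black diamond in each row. A rescaling moves both points nearly alike, so the steadiness of this gap is no separate check.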

How the data were processed

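The table holds FPKM as deposited by the authors, 1 value per gene and library. GRCm38, mm10 and edgeR 3.18.1 are named in the submitters' processing notes. Not given in the sources used here are the aligner, read counter and strand setting. The table has 1 more column of values, whose name fits no label, and it was left out. FPKM multiplied by gene length were whole multiples of a fixed step for 100% of values above 0 (tolerance 0.05), which gave 11299834 reads in the aGVHD_V library and 10869191 in the BMT library.

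The modal read number is the most frequent read number of 4 or more over a moving window of 7 (44 and 14). Intervals of folds are exact conditional binomial (Clopper-Pearson) 95% intervals on reads divided by it and cover counting error only, and the floor is 3 such counts (132 and 42 reads). Folds are FPKM ratios without a pseudocount. The pseudocount of 1 understates differences of low genes. Read recovery, the modal read number and 2-fold calls were run on simulated data. The coverage of the intervals was simulated for plain counts only, not for reads divided by the modal read number.

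The 47 genes, the role groups, 10 other cell cycle lists and 11 marker lists were chosen with earlier results of these data known. Named from the other lists were the gene with the highest mean FPKM and up to 2 with the largest difference, plus Ptprc, Tfrc and Gata1. Of the 47, the rule gave in full the most abundant gene of each role group and those at least 2-fold different, and the others, like other genes outside the 47, were chosen after their values were seen. Of the 47 positions 44 equal those of GENCODE M21. Near copies were sought with blastn 2.17.0 (95% identity over 200 bases). Python 3.11.15, scipy 1.17.1 and pandas 2.3.3 were used.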

Additional observations from a re-analysis of the deposited data

How the results depend on the processing

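With 1 library per group no replicate could be left out, and no paired analysis was possible because there is 1 library in each group. The 11 alternatives changed the pseudocount, scaling, filter or floor. No gene of the 47 was at least 2-fold lower on the authors' scale, 3 were after both libraries were given the same total FPKM (Bub1b, Spc25 and Ttk) and 2 with library sizes of all recovered reads (Bub1b and Spc25). Of all genes measured under each scaling, 19.4%, 38.4% and 23.5% were lower by as much, in that order. The number at least 2-fold higher was 3 on the authors' scale, 1 with a pseudocount of 5 (Birc5), and 0 with either of those rescalings. The shares of all measured genes were 8.65% on the authors' scale, 2.75% with that pseudocount, and 6.09% and 6.54% with those rescalings. The number higher by any size was 37, and 12 with the same total FPKM, beside 46.1% and 19.6% of all measured genes. The median of 0.31 became -0.26 with the same total FPKM and 0.070 with library sizes of all recovered reads. It was 0.22 without hemoglobin, mitochondrial and ribosomal protein genes in the library sizes. Under the other alternatives these counts stayed within 1.5 times. The median stayed within a 95% interval of the median over the 47 genes, taken from their ordered differences. That interval served only as a yardstick, since the genes share the same 2 libraries. The libraries cannot show which scaling holds, and depth limits genes with few reads, such as Ttk, Cdc25c and Pttg1, whose intervals are wide.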
